A study of Homo sapiens with 8 samples.

Results

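The LM2 line was derived from lung metastases of MDA-MB-231, a triple-negative human breast cancer line. Its RNA was sequenced here after drug treatment and after knockdown of the tyrosine kinases ABL1 and ABL2. Interferon-stimulated genes are described across those samples. The set held 43 genes, chosen by name with earlier results of these data known. They were matched by symbol to the gene identifiers of the count files, and 43 of the 43 were found among 58688 genes. LM2 cells without an shRNA vector, described in the study's methods as carrying luciferase, were given the vehicle DMSO (n = 2) or 1 µmol/L Ponatinib for 6 h (n = 2), Ponatinib being a multi-kinase inhibitor whose known targets include ABL. Stable LM2 lines made with lentivirus and puromycin selection carried a scrambled shRNA (shCtrl), an ABL1 shRNA, an ABL2 shRNA or shRNAs against both, with 1 sample of each. The labels do not say whether the 2 samples of a treatment came from separate cultures, so p-values measure the spread between these samples, which may be technical.

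Interferons are secreted cytokines that cells release when they sense foreign or misplaced nucleic acid. At their receptors the kinases JAK1 and TYK2 activate transcription factors that include STAT2, which joins IRF9 and binds the interferon-stimulated response element in the promoters of target genes. Interferon gamma acts through the gamma-activated site. The induced genes include RNA sensors, enzymes and binding proteins that block viral replication, ISG15 and the enzymes that attach it to other proteins, transcription factors that amplify the response, and the machinery of antigen presentation. In breast cancer cells part of this set is often expressed without infection.

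Total counts on genes were 7568934 to 13010896 per sample, and the floor of 3 counts was 0.231 to 0.396 CPM (a gene's reads relative to all reads on genes of its sample). The second Ponatinib sample was the shallowest. ABL1 was 189.8 normalised CPM in shCtrl and 72.73 with ABL1 shRNA, and ABL2 was 236.13 in shCtrl and 93.46 with ABL2 shRNA, as the labels have them. In the double knockdown ABL1 was 109.31 and ABL2 147.64 normalised CPM. Of the receptors whose low level defines triple-negative cells, ESR1 and PGR were under 1 CPM in every sample and ERBB2 was 52.7 to 68.0 CPM. The leukocyte markers PTPRC, CD68 and CD3E were also under 1 CPM in every sample, while CD14 was 0.597 to 1.3 CPM in the DMSO and Ponatinib samples and 2.76 to 7.24 CPM in the shRNA samples.

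In the DMSO samples the level per length differed widely among the members. As normalised CPM per kilobase of exon, the highest means were 46.3 for ISG15, the ubiquitin-like modifier of the response, 17.8 for IFI44, 13.8 for IFIT3 and 12.4 for HERC5. The lowest were 0.00893 for RSAD2, 0.0184 for OAS1 and 0.0217 for MX2. LM2 cells thus held transcripts of ISG15, IFIT3 and HERC5 without treatment, while the antiviral enzymes RSAD2 (viperin) and OAS1 and the GTPase MX2 were near the limit of counting. These 3 were too low to be tested with Ponatinib. OAS1 was 0.18 and 0.30 normalised CPM with DMSO and 0.47 and 0.39 with Ponatinib, MX2 was 0.53 and 0.10 against 0.85 and 0.91, and RSAD2 was 0.00 and 0.10 against 0.47 and 0.26.

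The first comparison asked how the inhibitor changed these genes within hours. Of the 40 members tested, 14 rose and 3 fell with Ponatinib (edgeR quasi-likelihood test, Benjamini-Hochberg adjusted p under 0.05 over 16031 genes). As a share of those tested, 35.0% of the members rose against 15.0% of all genes, and 7.5% fell against 15.7% of all genes. In either direction 42.5% of the members changed, beside 30.7% of all genes. The list was chosen with earlier results of these data known, so these shares describe it and are no test of it. The median log2 fold change was 0.26 over the members, 29 being above 0 and 11 below, and -0.005 over all genes. Both Ponatinib samples lay above both DMSO samples for 23 members, with 32.1% of all genes doing so, and below both for 5, with 32.8% of all genes doing so. By the rule of the study's methods, a fold change over 2 with an unadjusted P under 0.05, 5 members were higher (IFIH1, IFIT1, IFIT2, IFI44L and XAF1) against 3.19% of all genes, and 0 were lower against 2.29%. Without the second DMSO sample, 9 members rose in place of 14.

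**Figure D1:**
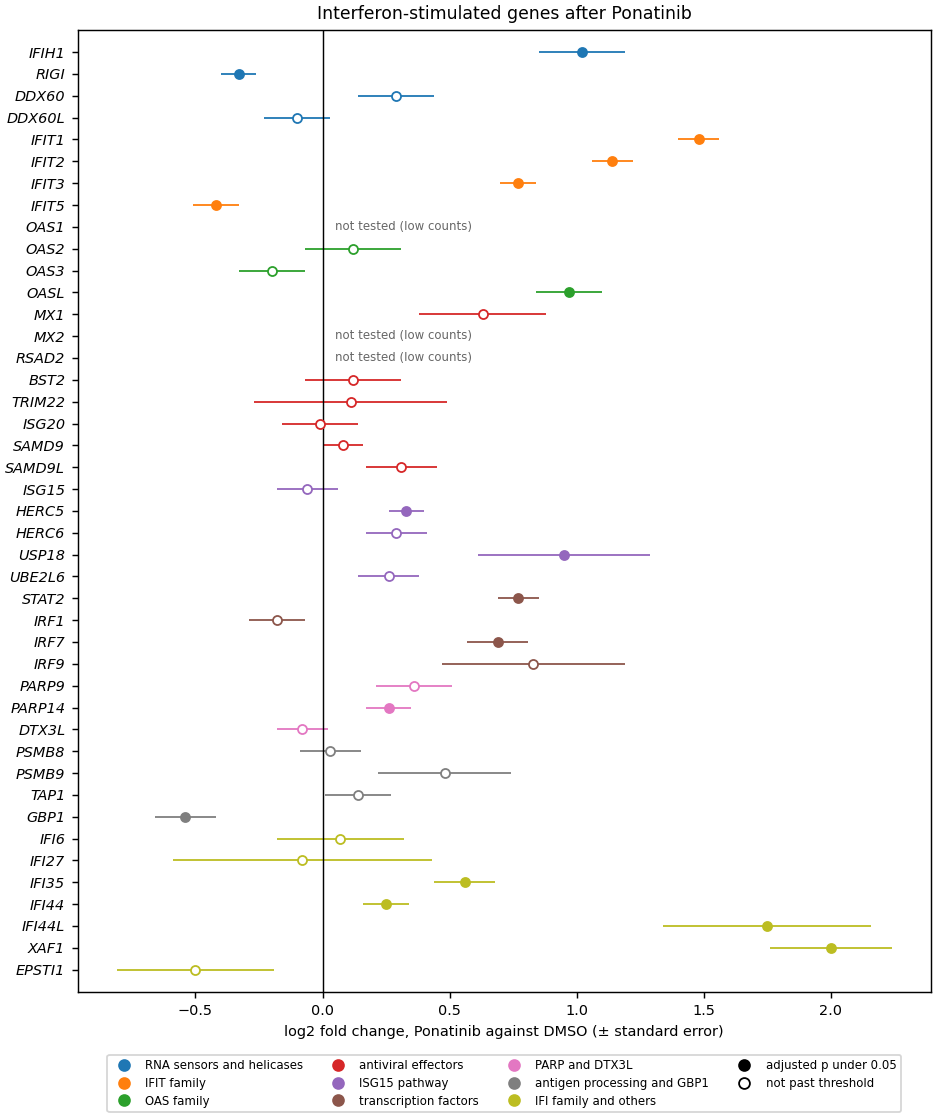
Log2 fold change of each member between Ponatinib (n = 2) and DMSO (n = 2), with its standard error, coloured by role. Filled points passed an adjusted p of 0.05, 14 of them above 0 and 3 below, and XAF1 at 2.00 is farthest to the right.

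The 6 members with the largest rises were XAF1, IFI44L, IFIT1, IFIT2, IFIH1 and OASL, in that order. IFIT proteins bind viral RNA and block its translation, and the 4 IFIT genes of the set lie near one another on chromosome 10. IFIT1 was 29.40 and 30.41 normalised CPM with DMSO and 83.25 and 83.20 with Ponatinib. Both treated samples were far above both controls, and the log2 fold change was 1.48 ± 0.08 (SE, adjusted p = 2.5e-09 by edgeR). IFIT2, a partner of IFIT1 and IFIT3, was 38.94 and 37.38 against 82.30 and 86.58 normalised CPM, a log2 fold change of 1.14 ± 0.08 (adjusted p = 3.1e-08 by edgeR). IFIT3, which stabilises IFIT1, was 70.63 and 69.40 against 121.84 and 115.92, and it rose by 0.77 ± 0.07 on the log2 scale. For these 3 genes the samples of a group differed far less than the groups did. IFIT5, the fourth IFIT gene of the set, went the other way. It was 39.55 and 42.02 normalised CPM with DMSO and 30.44 and 30.50 with Ponatinib, a log2 fold change of -0.42 ± 0.09 (adjusted p = 0.0025 by edgeR).

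The promoters of IFIT1 and IFIT5, neighbours on the same strand, are shown because the genes sit close together and moved in opposite directions. They are from RefSeq on GRCh38.p14, the 250 bases before the start site on the gene's strand, with capitals at the core of the interferon-stimulated response element, defined as 2 GAAA blocks with any 2 bases between them and read as TTTC blocks where the element lies on the other strand. The window of IFIT1 is chr10:89392373-89392622 (+) and that of IFIT5 chr10:89414318-89414567 (+).
IFIT1: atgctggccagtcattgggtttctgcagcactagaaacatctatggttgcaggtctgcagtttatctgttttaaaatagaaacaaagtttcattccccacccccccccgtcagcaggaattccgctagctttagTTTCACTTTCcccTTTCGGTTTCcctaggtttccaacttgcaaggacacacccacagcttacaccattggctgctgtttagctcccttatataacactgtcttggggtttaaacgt
IFIT5: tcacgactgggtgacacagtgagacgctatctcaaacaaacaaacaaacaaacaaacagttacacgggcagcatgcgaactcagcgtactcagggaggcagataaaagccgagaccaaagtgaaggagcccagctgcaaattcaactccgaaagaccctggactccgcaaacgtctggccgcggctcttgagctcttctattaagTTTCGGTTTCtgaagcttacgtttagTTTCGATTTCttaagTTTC
IFIT1 had 2 matches, which began 116 and 103 bases before the start site. IFIT5 had 3, which began 45, 19 and 4 bases before it, and the last runs on past the start site. By the presence of this core alone, the gene that fell held more matches than the one that rose. This pair does not stand for the other members. RIGI and GBP1, which also fell, held 0 and 1 matches, and the members that rose held 0 to 3.

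Promoter windows, each 250 bases before to 50 after a start site, were found for 36 of the 43 members, and USP18, IFIT2, TRIM22, MX2, OASL, OAS2 and IRF7 were not among them. The response element core was in 25 of the 36 (69.4%), against 4.38% of 27305 genes with a window. The core followed by CT was in 15 (41.7%) against 0.322%. The gamma-activated site TTCNNNGAA, searched on both strands like the core, was in 12 (33.3%) against 9.38%. The members were listed as known interferon targets, so these shares describe the list and are no test of it. Among the members that rose, 7 of 10 with a window held the core, as did 2 of the 3 that fell and 15 of the 21 that did not pass the threshold. Among members with a window, the core was thus about as frequent in those that did not pass as in those that rose. IFIT2, OASL, USP18 and IRF7 also rose but had no window, so they are not in this comparison. ISG15 had its matches inside 3 consecutive GAAA blocks, and STAT2 had no match to either motif. ISG15 is shown as the example of a member with a repeated core whose level did not pass the test with Ponatinib, and STAT2 as a member that rose without one. Their windows are chr1:1013247-1013496 (+) and chr12:56360108-56360357 (-).
ISG15: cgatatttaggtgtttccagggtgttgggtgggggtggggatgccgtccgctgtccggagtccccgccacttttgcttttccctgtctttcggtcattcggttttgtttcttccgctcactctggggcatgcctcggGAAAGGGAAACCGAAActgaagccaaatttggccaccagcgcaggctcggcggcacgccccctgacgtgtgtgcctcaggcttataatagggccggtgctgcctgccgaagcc
STAT2: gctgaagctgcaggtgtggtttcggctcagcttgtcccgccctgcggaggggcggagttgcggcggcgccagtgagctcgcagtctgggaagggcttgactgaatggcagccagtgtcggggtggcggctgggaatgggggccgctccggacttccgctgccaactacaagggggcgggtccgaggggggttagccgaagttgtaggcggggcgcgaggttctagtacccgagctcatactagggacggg
No match says only that these letters are not in this window.

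**Figure D2:**
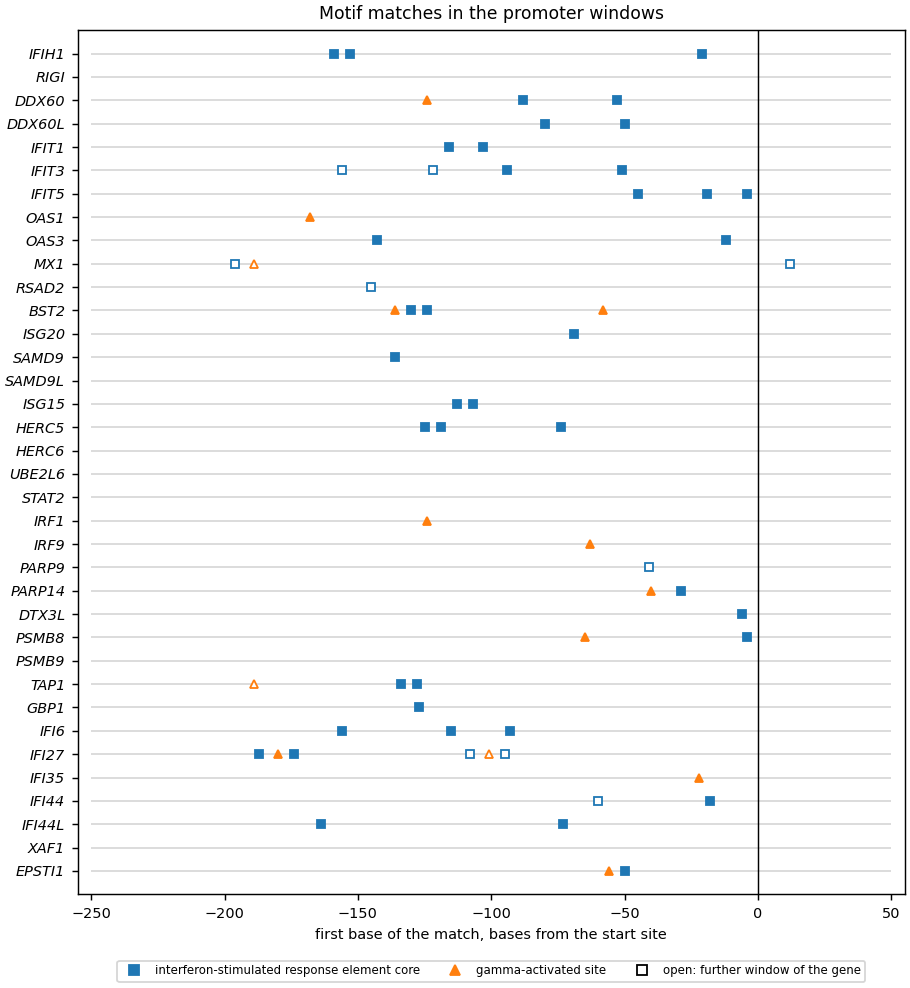
Positions of motif matches in the promoter windows of the 36 members with one, in bases from the start site, with squares for the response element core and triangles for the gamma-activated site, each drawn at its first base. Open symbols belong to a further start site of the same gene, and 25 members carry at least 1 square.

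Of the RNA sensors, IFIH1 and RIGI moved in opposite directions. IFIH1, which encodes the long double-stranded RNA sensor MDA5, was 6.27 and 8.18 normalised CPM with DMSO and 15.55 and 13.24 with Ponatinib. The groups did not overlap, and the log2 fold change was 1.02 ± 0.17 (adjusted p = 0.00032 by edgeR). RIGI, the sensor of RNA with a triphosphate end, was 80.87 and 82.13 against 62.58 and 67.63 normalised CPM, a log2 fold change of -0.33 ± 0.07 (adjusted p = 0.0029 by edgeR). In GENCODE 44, RIGI and IFIT2 share exon bases with a gene on their own strand, and XAF1, IFIT2, IFIT3 and ISG15 with one on the other strand. The release used for the counting is not given, so it may lack some of these partners. The shared part of the exon bases was 43.2% for RIGI, 38.3% for XAF1, 13.6% for IFIT2, 4.2% for ISG15 and 1.9% for IFIT3. Other members also had such overlaps, among them IRF9 (31.9%), IRF1 (26.8%), IFI6 (23.1%) and PSMB8 (21.3%). The strand and overlap settings of the counting are not given, so reads of such partners could be included. Reads on shared bases could also have been left out as ambiguous. The helicases DDX60 and DDX60L, at log2 fold changes of 0.29 and -0.10, did not pass.

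OASL was the member of the oligoadenylate synthetase family that rose. It lacks the family's enzymatic activity and enhances signalling by RIG-I. OASL was 11.04 and 10.71 normalised CPM with DMSO and 21.05 and 21.81 with Ponatinib, a log2 fold change of 0.97 ± 0.13 (adjusted p = 3.4e-05 by edgeR). OAS2 and OAS3, which make the oligoadenylates that activate RNase L, were at 0.12 ± 0.19 and -0.20 ± 0.13 on the log2 scale and did not pass. None of the 6 tested direct antiviral effectors passed (edgeR, adjusted p 0.066 to 0.96), with 2 of them, MX1 and SAMD9L, under an unadjusted p of 0.05 and 0 called by DESeq2. MX1, a dynamin-like GTPase, came nearest at 0.63 ± 0.25, with 3.44 and 2.53 against 4.65 and 4.67 normalised CPM. The virion tether BST2, the ubiquitin ligase TRIM22, the exonuclease ISG20 and the poxvirus restriction factors SAMD9 and SAMD9L lay between -0.01 and 0.31.

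XAF1, which antagonises the apoptosis inhibitor XIAP, had the largest log2 fold change of the members. It was 2.56 and 2.02 normalised CPM with DMSO and 7.96 and 10.90 with Ponatinib, a log2 fold change of 2.00 ± 0.24 (adjusted p = 1.6e-05 by edgeR). IFI44L, a paralogue of IFI44, rested on few reads, 10 and 4 counts with DMSO and 24 and 17 with Ponatinib, and its log2 fold change was 1.75 ± 0.41 (adjusted p = 0.0046 by edgeR). Without the second DMSO sample its log2 fold change was 1.34 with an adjusted p of 0.067. IFI35 and IFI44 also rose, by 0.56 ± 0.12 and 0.25 ± 0.09. IFI6, IFI27 and EPSTI1, at 0.07, -0.08 and -0.50, did not pass.

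Within the ISG15 pathway the modifier itself did not pass the test. ISG15 was 35.32 and 44.95 normalised CPM with DMSO and 41.81 and 34.14 with Ponatinib, so that the groups overlapped. USP18, the protease that removes ISG15 and restrains the type I receptor, rose by 0.95 ± 0.34 from 17 and 10 counts to 23 and 22 (adjusted p = 0.048 by edgeR). HERC5, the main ISG15 ligase, was 60.65 and 57.88 against 76.99 and 71.78 normalised CPM and rose by 0.33 ± 0.07. The conjugating enzyme UBE2L6 and the related ligase HERC6 were at 0.26 ± 0.12 and 0.29 ± 0.12 and did not pass. USP18 lost its call without either DMSO sample or the second Ponatinib sample (adjusted p 0.081, 0.29 and 0.19), and HERC5 without the second DMSO sample (adjusted p = 0.069).

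Of the transcription factors, STAT2 and IRF7 rose. STAT2 was 60.21 and 68.69 normalised CPM with DMSO and 107.24 and 112.28 with Ponatinib, a log2 fold change of 0.77 ± 0.08 (adjusted p = 2.1e-06 by edgeR). IRF7, which drives interferon alpha genes, was 14.13 and 14.55 against 21.71 and 24.92, a log2 fold change of 0.69 ± 0.12 (adjusted p = 0.00056 by edgeR). IRF9, the DNA-binding partner of STAT2, was at 0.83 ± 0.36 on few reads, and IRF1, the factor of the gamma response, at -0.18 ± 0.11, neither past the threshold. PARP14, an ADP-ribosyltransferase, rose by 0.26 ± 0.09, whereas PARP9 and its partner DTX3L, at 0.36 ± 0.15 and -0.08 ± 0.10, did not pass. The calls of PARP14 and IFI44 were both lost without either DMSO sample and without the second Ponatinib sample (adjusted p 0.058 to 0.31), and also without a filter on low counts and with DESeq2 (adjusted p 0.067 to 0.23).

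The antigen processing members did not pass, and GBP1 fell. GBP1, a guanylate-binding GTPase typical of the interferon gamma response, was 24.90 and 23.34 normalised CPM with DMSO and 17.45 and 15.58 with Ponatinib, a log2 fold change of -0.54 ± 0.12 (adjusted p = 0.0027 by edgeR). The immunoproteasome subunits PSMB8 and PSMB9 were at 0.03 ± 0.12 and 0.48 ± 0.26, and the peptide transporter TAP1 at 0.14 ± 0.13. Beside the 15.0% of all genes that rose, the number of members that rose of the number tested in each role was 3 of 4 for the IFIT family, 4 of 7 for the IFI genes and others, 2 of 4 for the transcription factors, 2 of 5 for the ISG15 pathway, 1 of 4 for RNA sensors and helicases, 1 of 3 each for the OAS family and for PARP9, PARP14 and DTX3L, and 0 for the antiviral effectors and for the antigen processing genes with GBP1. Of the latter group 0 rose at an unadjusted p of 0.05 or by DESeq2 either.

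**Figure D3:**
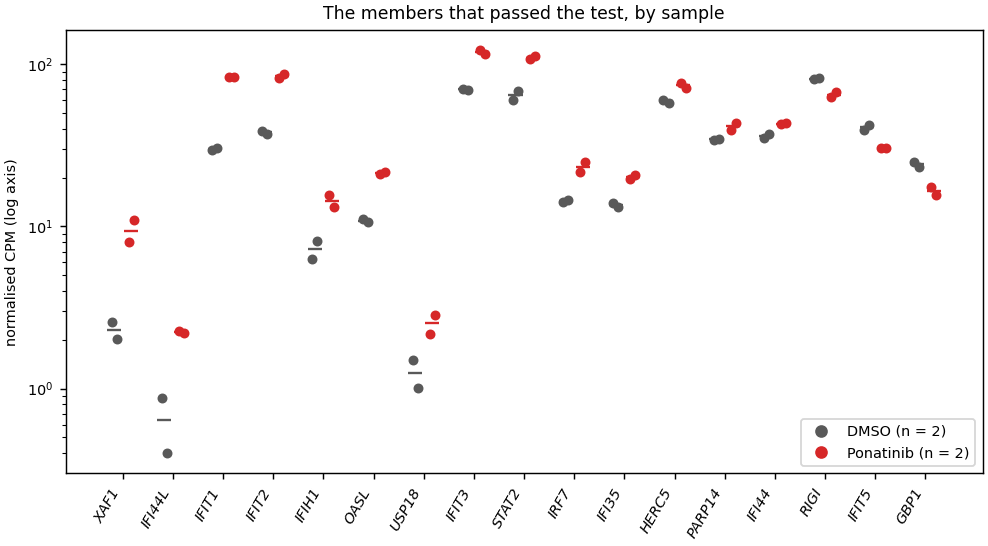
Normalised CPM on a log axis in each DMSO and Ponatinib sample for the 17 members that passed the test, with points for samples and bars for group means (n = 2 each), ordered from the largest rise to the largest fall. The groups do not overlap in any of the 17 genes, which adds no support because the test picked them from these same samples. IFI44L and USP18 have the lowest levels.

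Other genes of the pathway, 98 in 6 lists, place these changes. The 10 interferon genes listed gave no more than 1 count in any of the 8 samples, and 8 of them had 0 counts throughout. Their transcripts were thus not detectable above 0.231 to 0.396 CPM. Interferon genes outside this list, among them most interferon alpha genes, were not examined. The counts that follow for each list stand beside 15.0% of all genes that rose and 15.7% that fell. Of the list of receptors, kinases and signal transducers, 4 of 11 rose (IFNGR1, JAK1, JAK2 and TYK2, at log2 fold changes of 0.22 to 0.49), and STAT3 fell. These 5 calls were each lost without either DMSO sample (adjusted p 0.054 to 0.24), and those of IFNGR1, JAK1, JAK2 and STAT3 also by DESeq2 (adjusted p 0.053 to 0.16). Of the brakes on the pathway, the feedback inhibitor SOCS3 fell from 79.02 and 82.83 to 48.07 and 50.10 normalised CPM, a log2 fold change of -0.72 ± 0.07 (adjusted p = 3.2e-06 by edgeR), SOCS2 fell by 0.47, and PIAS3 and PTPN6 rose. The calls of SOCS2 and PIAS3 were lost by DESeq2 (adjusted p 0.15 and 0.059) and without the first DMSO sample, and that of PTPN6 in 7 alternatives, among them each leave-out of 1 sample (adjusted p 0.11 to 0.24). Of the nucleic acid sensing genes, 7 of 14 rose and 3 fell. DHX58, the third member of the RIG-I receptor family, was 3.88 and 3.03 against 6.92 and 9.48 normalised CPM, and the endosomal RNA receptor TLR3 was 4.06 and 5.35 against 8.72 and 12.07, log2 fold changes of 1.21 ± 0.23 and 1.13 ± 0.21. The DNA sensor CGAS fell from 57.74 and 56.27 to 33.28 and 40.37, a log2 fold change of -0.64 ± 0.09, and the adaptors TICAM1 and TRAF3 fell by 0.54 and 0.33. By DESeq2 the calls of TICAM1 and TRAF3 were lost (adjusted p 0.058 and 0.057). Of those that rose, STING1 and TRIM25 lost theirs by DESeq2 (adjusted p 0.16 and 0.12). That of TRIM25 was also lost with a replicate block and without a filter on low counts (adjusted p 0.062 and 0.074 by edgeR). The calls of STING1, EIF2AK2, ADAR and TRIM25 were lost without the first DMSO sample.

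Of 26 further interferon-induced genes tested, 7 rose, led by APOL6 (1.40 ± 0.11), the death ligand TNFSF10 (1.20 ± 0.38) and the GTPase GBP2 (1.05 ± 0.13), and GBP3 (-0.76 ± 0.09) and ZNFX1 (-0.29 ± 0.06) fell. TNFSF10 was under 3 normalised CPM in every sample, and without the first Ponatinib sample it was at 0.84 with an adjusted p of 0.28. Its call was also lost without either DMSO sample (adjusted p = 0.12 for both), and that of ZNFX1 likewise (0.053 and 0.063). Of the guanylate-binding genes, GBP1 and GBP3 fell and GBP2 rose, and the rise of GBP4 (0.95 ± 0.29) was lost by DESeq2 (adjusted p = 0.21) and without either DMSO sample or the first Ponatinib sample (0.085 to 0.12). Of 16 antigen presentation genes, 4 rose, led by the class II transactivator CIITA (0.57 ± 0.18), and the peptide transporter subunit TAP2 fell by 0.29. Both of these calls were lost by DESeq2 (adjusted p 0.11 and 0.13) and without the first DMSO sample. The others that rose, TAPBP, ERAP2 and NLRC5, were lost by DESeq2 too (adjusted p 0.07, 0.24 and 0.21). Without the first DMSO sample their calls were lost as well. Together 24 of the 76 tested rose and 9 fell, 31.6% and 11.8%, beside 15.0% and 15.7% of all genes. The pathway lists too were chosen with earlier results of these data known, so these shares are no test of them. Without the first DMSO sample 6 rose and 4 fell, without the second 9 rose and 7 fell, and by DESeq2's Wald test 10 rose and 4 fell.

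The knockdowns asked whether loss of the kinases changes the same genes. Each had 1 sample and was set against the same shCtrl sample, so there is no replicate check and no test, and intervals of the ratio cover counting error only (95%, exact conditional binomial). With ABL1 shRNA, 1 of the 43 members was over 2-fold higher and 1 over 2-fold lower, against 4.86% and 4.04% of all genes evaluated. IFI27, a mitochondrial protein gene, was 5.10 normalised CPM in shCtrl and 10.63 with ABL1 shRNA, a log2 ratio of 1.06 (0.61 to 1.53). OAS3, an oligoadenylate synthetase, was 28.40 against 13.79, a log2 ratio of -1.04 (-1.31 to -0.77). With ABL2 shRNA, IFI44L alone was over 2-fold higher, at 5.27 against 11.67 normalised CPM and a log2 ratio of 1.15 (0.70 to 1.60), with 4.6% of all genes higher, and 0 members were lower, with 3.08% of all genes. With both shRNAs 0 members were past 2-fold in either direction, against 4.47% higher and 3.27% lower of all genes.

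Smaller differences that exceeded counting error were common among the members and among all genes. With ABL1 shRNA the interval lay above a ratio of 1 for 16 members and below it for 9, with 23.3% and 24.7% of all genes. With ABL2 shRNA it lay above for 19 and below for 5, with 20.6% and 22.9% of all genes, and with both shRNAs above for 16 and below for 9, with 21.6% and 23.2%. The median log2 ratio of the members was 0.15, 0.25 and 0.12, and that of all genes 0.00, -0.01 and 0.00. A fit of all 8 samples, which takes its spread from the DMSO and Ponatinib pairs and assumes that the shRNA samples vary like them, called 13 members higher and 7 lower with ABL1 shRNA, beside 10.6% and 11.4% of all genes. It called 9 higher and 3 lower with ABL2 shRNA, beside 7.89% and 7.68%, and 8 higher and 4 lower with both, beside 8.43% and 9.42%.

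**Figure D4:**
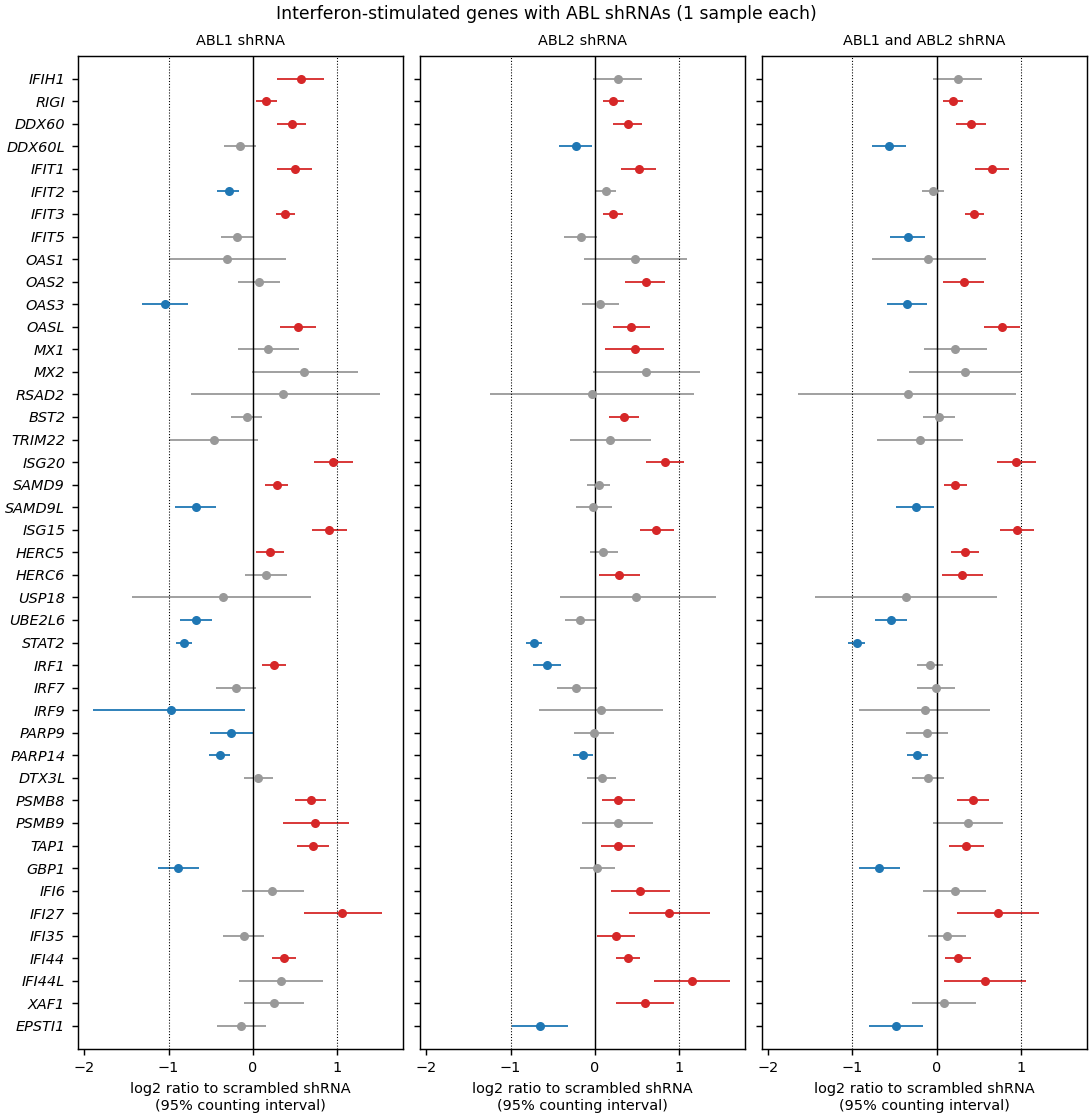
Log2 ratio of each member to shCtrl in the 3 knockdowns, with 95% counting intervals, from 1 sample each. Red and blue points have intervals wholly above and below 0, dotted lines mark 2-fold, and only IFI27, OAS3 and IFI44L are past them.

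Because the shCtrl sample is the only control, a gene that is unusual in it differs in all 3 ratios at once. The shCtrl sample was the lowest of the 4 shRNA samples for 22 of the 43 members (51.2%), against 29.6% of all genes, and the highest for 9, against 29.5%. ISG15, ISG20, STAT2, GBP1 and IFIT1 are given as examples, chosen after their values were seen. ISG15 was 26.55 normalised CPM in shCtrl and 49.69, 44.15 and 51.24 with ABL1, ABL2 and both shRNAs, log2 ratios of 0.90, 0.73 and 0.95. ISG20 was 20.75 against 40.06, 36.84 and 39.73. The 3 knockdown samples lay close together in both genes, with shCtrl apart from them. STAT2 had the opposite form, at 205.89 in shCtrl and 117.02, 124.66 and 106.84 in the knockdowns, log2 ratios of -0.82, -0.72 and -0.95. GBP1 was 31.74 in shCtrl and 32.40 with ABL2 shRNA, and 17.18 and 19.82 in the lines that carried ABL1 shRNA. IFIT1 was 27.69 against 39.06, 39.70 and 43.43, log2 ratios of 0.50, 0.52 and 0.65.

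Side by side with the drug, the members that changed most with Ponatinib were not past 2-fold in the knockdowns, IFI44L with ABL2 shRNA excepted. XAF1 had a log2 fold change of 2.00 with Ponatinib and log2 ratios of 0.25, 0.59 and 0.08 with ABL1, ABL2 and both shRNAs. IFI44L had 1.75 with Ponatinib and 0.33, 1.15 and 0.57 in the knockdowns. IFIT1 had 1.48 with Ponatinib and, as given above, was above shCtrl in the 3 knockdowns. IFIT2 had 1.14 with Ponatinib and -0.29, 0.13 and -0.04 in the knockdowns. IFIH1 had 1.02 with Ponatinib and 0.57, 0.27 and 0.25 in the knockdowns, and OASL had 0.97 and 0.53, 0.43 and 0.77. Of the 6 members with the largest rises, all but IFIT2 were thus above shCtrl in the 3 knockdowns, though not always beyond counting error. The 3 ratios share that 1 control sample, which was the lowest for 51.2% of all members and 29.6% of all genes. STAT2 had 0.77 with Ponatinib and lay below shCtrl in the 3 knockdowns. Ponatinib itself lowered ABL2 RNA, from 334.44 and 305.28 normalised CPM with DMSO to 147.25 and 168.75. The log2 fold change was -1.02 ± 0.07 (adjusted p = 8.6e-08 by edgeR), and that of ABL1 was 0.19 ± 0.06. In the double knockdown ABL1 was at 0.58 and ABL2 at 0.63 of shCtrl, against 0.38 and 0.4 in the single knockdowns. The difference between drug and knockdown was not tested, and doses, times and the making of the cells differ.

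Finally, the shRNA lines and the cells without an shRNA vector differed in the level of these genes. In plain CPM, 28 of the 43 members (65.1%) were higher in all 4 shRNA samples than in all 4 DMSO and Ponatinib samples, against 20.5% of all genes, and 0 were lower in all 4, against 26.5%. The examples that follow were chosen after their values were seen. BST2 was 6.17 to 8.26 CPM in the DMSO and Ponatinib samples and 38.58 to 52.18 in the shRNA samples. EPSTI1, first found in tumour and stroma co-culture, was 1.59 to 2.39 against 10.76 to 16.36 CPM. OAS2 was 7.65 to 11.15 against 20.93 to 32.67, and OAS1 0.17 to 0.48 against 2.77 to 4.82. The ranges of IFIT1 (28.93 to 84.69 against 27.13 to 43.95 CPM) and ISG15 (34.75 to 44.28 against 26.01 to 51.86) overlapped. In these bulk samples more cells expressing a gene and more RNA per cell cannot be told apart. The shRNA vector, lentivirus and selection cannot be told apart from the experiment, its libraries and any difference in counting, which coincide with them. Of genes with at least 100 counts in all DMSO and Ponatinib samples, 68 had 0 counts in all shRNA samples, 0 of them members. Reads without a feature or ambiguous were listed for the shRNA samples only. Whether both experiments were counted with the same settings is not given and was not tested. Some markers of other cell types moved with the same split. The summed fibroblast markers were 63.6 to 90.2 CPM in the DMSO and Ponatinib samples and 106 to 410 in the shRNA samples, and the endothelial markers 2.51 to 4.32 and 21.3 to 40.7. Most of each sum came from 1 gene, COL1A1 (61.3 to 85.0 against 98.8 to 398 CPM) and PECAM1 (2.38 to 4.04 against 20.1 to 40.1 CPM), and the levels of CD14 given above followed the same split. The fibroblast marker DCN, the endothelial marker CDH5 and the leukocyte marker PTPRC were under 1 CPM in every sample, and the part of these markers in the result was not tested.

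**Figure D5:**
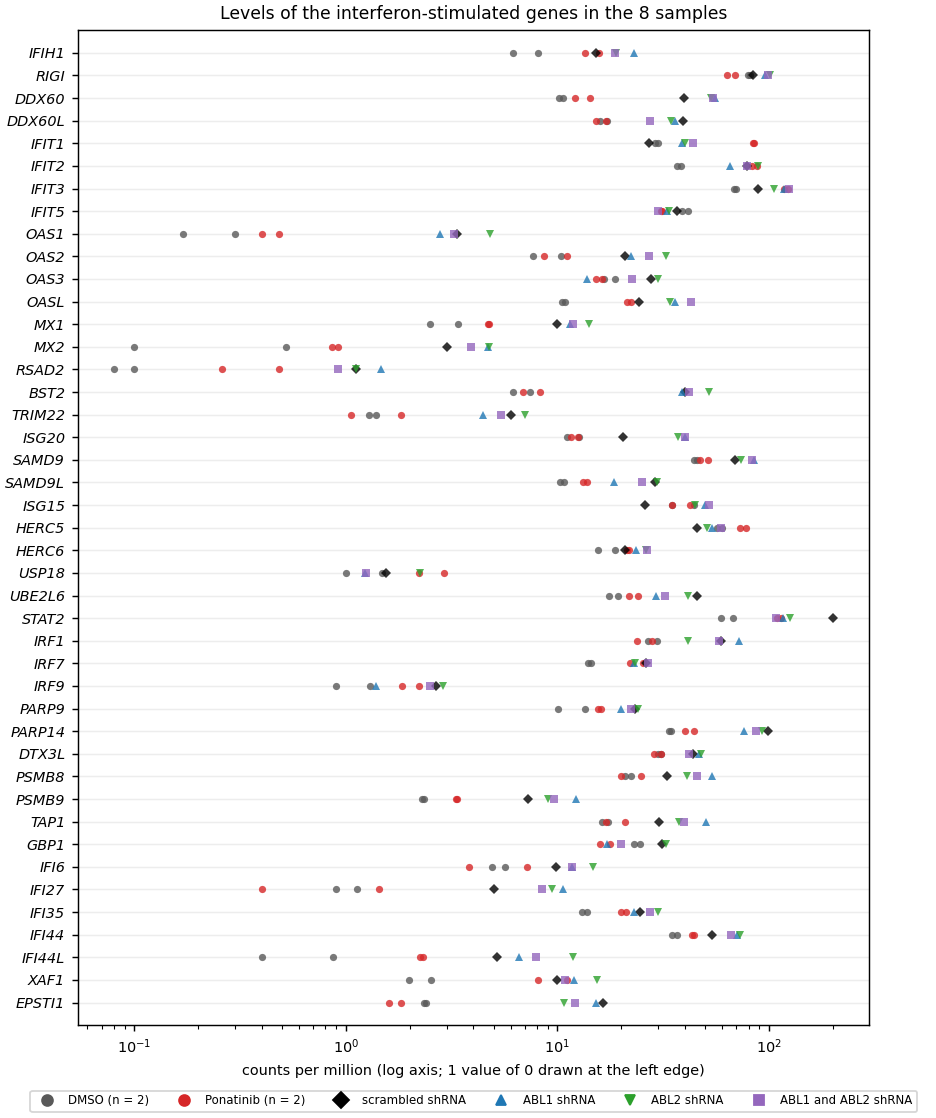
Plain CPM of the 43 members in the 8 samples on a log axis, with grey and red points for DMSO and Ponatinib (n = 2 each) and other symbols for the shRNA samples (1 each). For 28 members, BST2, EPSTI1 and OAS1 among them, all shRNA samples lie to the right of all DMSO and Ponatinib samples.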

How the data were processed

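RNA-seq of 8 LM2 samples was analysed from the deposited raw read counts per gene, made by the authors with TopHat on hg38 and HTSeq 0.6.0. Annotation release, strand and overlap settings are not given in the sources used here. Reads without a feature (9.48% to 9.9%) or ambiguous (6.12% to 6.32%) were listed for the shRNA samples and left out. Inside the scrambled and ABL1 shRNA tables the header cells are exchanged, while ABL1 and ABL2 counts follow the labels, which were used. Of genes with at least 100 counts in all DMSO and Ponatinib samples, 68 had 0 counts in all shRNA samples, 0 of them members.

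Ponatinib and DMSO were compared in their 4 samples by the quasi-likelihood test of edgeR (version 4.0.16, R 4.3.3) after TMM scaling and filterByExpr, with a prior count of 0.125, and the code was tested on simulated data. Normalised CPM are TMM-scaled. Knockdown ratios used genes with at least 10 counts in either library. Intervals and floors cover counting error only. Positions and exon lengths are from GENCODE 44 on GRCh38 and promoters from RefSeq on GRCh38.p14. Alternatives were other scalings and filters, DESeq2 1.42.0, a replicate block, a fit of all 8 samples and leaving out each sample.

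Members and pathway lists were chosen with earlier results of these data known. Values are given for the 6 members with the largest change in each direction, members past 2-fold in a knockdown and up to 3 called genes per direction of each pathway list; other values are named as chosen afterwards or stand for the remaining members. Some genes of the lists are not reported here.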

Additional observations from a re-analysis of the deposited data

How the results depend on the processing

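The 14 members that rose with Ponatinib became 12 without a filter on low counts, 13 with at least 10 counts in every sample, 10 with DESeq2's Wald test and 12 in the fit of all 8 samples, and stayed 14 under other scalings. Leaving out 1 sample gave 9 to 15. Under the study's rule 5 were higher and 0 lower. The 3 that fell stayed 3 under every other alternative run, and 12 of the 17 called members were called under all 11 other fits (IFIH1, RIGI, IFIT1, IFIT2, IFIT3, IFIT5, OASL, STAT2, IRF7, GBP1, IFI35 and XAF1). Of the pathway genes, the 24 that rose were 10 with DESeq2 and 6 to 22 when 1 sample was left out, and the 9 that fell were 4 and 4 to 13. DESeq2 gave no adjusted p to the members IFI44L and USP18 or to the pathway genes PTPN6 and TNFSF10. These genes are counted as not called by it. Of the 14 members that rose, those that DESeq2 evaluated and did not call were PARP14 and IFI44. No result changed direction. No scaling moved the median of all genes beyond 0.04 on the log2 scale.

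The labels do not say whether samples with the same repeat number belong together. Deviations of same-numbered samples correlated at 0.01677 over 10280 genes, so no large effect shared by a repeat number was seen. This cannot tell whether they were prepared together. With the replicate block 14 members rose and 3 fell, and 22 and 9 pathway genes.

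The knockdown counts past 2-fold kept their values under other scalings and count minimums. The fit of all 8 samples, whose spread comes only from the DMSO and Ponatinib pairs, called 13 members higher and 7 lower with ABL1 shRNA, 9 and 3 with ABL2 shRNA, and 8 and 4 with both by its adjusted p rather than by 2-fold. The stricter response element, followed by CT, was in 15 members in place of 25. Depth limits OAS1, MX2 and RSAD2, which were not tested, and IFI44L and USP18, which had at most 24 counts in a DMSO or Ponatinib sample.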

Other observations

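Of the pathway genes outside the member list, 1 was over 2-fold higher and 3 lower of 79 with ABL1 shRNA (1.3% and 3.8%, beside 4.86% and 4.04% of all genes), 1 and 0 of 80 with ABL2 shRNA (beside 4.6% and 3.08%), and 2 and 2 of 80 with both (2.5% each, beside 4.47% and 3.27%). Each of the values that follow compares 1 sample with the same shCtrl sample, with no test. ERAP1, which trims peptides for antigen presentation, was 107.78 normalised CPM in shCtrl and 109.66 with ABL2 shRNA, but 37.90 with ABL1 shRNA and 45.16 with both. Its log2 ratios were -1.51 (95% counting interval -1.66 to -1.36), 0.02 (-0.09 to 0.14) and -1.26 (-1.40 to -1.11) with ABL1, ABL2 and both shRNAs, so the low values were in both lines that carry ABL1 shRNA. SOCS2, a feedback inhibitor of cytokine receptors, was 5.01 in shCtrl and 13.56, 5.72 and 9.29 normalised CPM in the same order. IFITM2, a membrane protein that blocks virus entry, was 61.36 in shCtrl and 28.58, 38.03 and 34.71. HLA-F was 4.22 against 7.40, 7.38 and 9.71. The chemokine gene CXCL10 and the transcription factor gene BATF2 were also past 2-fold in at least 1 line but stayed under 2 normalised CPM in every shRNA sample.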
